A study of Mus musculus with 6 samples.

Results

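Uridine phosphorylase 1 (Upp1) and 8 genes of pyrimidine nucleotide supply were examined in transplanted mouse lung tumors treated with photodynamic therapy. The 9 genes, of 21899 listed in the expression table, were Upp1, the uridine kinase genes Uck1, Uck2 and Uckl1, the deaminase genes Cda and Dctd, and the de novo synthesis genes Cad, Dhodh and Umps. Upp1 was selected on its difference between the SePC-La and Laser groups in these same samples, so its values are a description with no test in any comparison, since all 3 comparisons share samples with that choice. The other 8 genes were chosen by their place in the pathway, with earlier results of these data known.

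RNA was sequenced from tumors of male C57BL/6 mice that carried subcutaneous LLC-luc cells, a luciferase-marked line of Lewis lung carcinoma. The tumors of all 3 groups came from this single transplanted line and were all irradiated with the laser. The Laser group received saline and no photosensitizer, the PC-La group received phycocyanin (PC), a blue pigment protein of cyanobacteria, and the SePC-La group received the selenium-enriched form of that protein (Se-PC). The labels give injection into the tumor every 5 days and 10 min of irradiation at 620 nm, 4 h after injection, while the methods of the study give another wavelength and interval. There were 2 samples per group (Laser 1 and 2, PC-La 1 and 2, SePC-La 1 and 2). Nothing in the sources says how the 2 samples of a group relate to each other beyond their number, nor whether each is a separate tumor, and the study's text also speaks of sequencing in triplicate, so p-values measure only the spread between these samples.

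Pyrimidine nucleotides reach a cell by 2 routes. In de novo synthesis, the protein encoded by Cad carries out the opening steps from glutamine, Dhodh oxidizes dihydroorotate in mitochondria, and Umps turns orotate into UMP. In salvage, uridine kinases phosphorylate uridine and cytidine that are already made, Cda converts cytidine to uridine, and Dctd converts dCMP to dUMP for thymidylate synthesis. Uridine phosphorylase stands apart from these, because it splits uridine into uracil and ribose 1-phosphate, which can feed sugar metabolism.

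The level of a gene is given in FPKM, a count of fragments scaled by exon length and by the fragments counted in the sample, so that levels of different genes can be compared per length. Read totals recovered from the table were between 14447792 and 17649489 per sample, and the 9 genes carried between 211 and 5066 reads each. The correlation of log2 levels between the 2 samples of a group was 0.946 for Laser, 0.992 for PC-La and 0.972 for SePC-La. The tissue is labelled as lung cancer tissue, and of 6 lung epithelial markers Scgb1a1 and Nkx2-1 were listed at 0 in all 6 samples, Sftpa1, Sftpb and Sftpc were at most 0.369 FPKM, and Ager lay between 0.679 and 1.37 FPKM. Differences were tested with limma on log2(FPKM + 1) over the 10853 genes whose mean over the samples reached 1 FPKM, and all 9 genes passed this filter. A call here means an unadjusted p under 0.05 in that fit. The p printed is the one adjusted over all genes tested.

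Upp1 stood higher in both SePC-La samples than in the other 4. Its level was 14.4 and 12.6 FPKM in Laser 1 and 2, 9.92 and 14.2 FPKM in PC-La 1 and 2, and 41.8 and 32.9 FPKM in SePC-La 1 and 2. The SePC-La samples did not overlap the samples of either other group, whereas the Laser and PC-La samples overlapped each other. The group means were 13.5 ± 1.30 FPKM for Laser, 12.1 ± 3.06 FPKM for PC-La and 37.3 ± 6.29 FPKM for SePC-La (SD, n = 2). The mean of SePC-La was thus 2.77 times that of Laser and 3.09 times that of PC-La. On the log2(FPKM + 1) scale, SePC-La was above Laser by 1.40 (SE 0.20) and above PC-La by 1.56 (SE 0.20), and PC-La differed from Laser by -0.16 (SE 0.20).

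The values of Upp1 rested on 304 to 1183 reads per sample. Among all genes expressed in a sample, Upp1 ranked from the 66.4th percentile at its lowest to the 92.4th at its highest. When single samples were left out, its log2 difference was 1.23 to 1.56 between SePC-La and Laser and 1.32 to 1.80 between SePC-La and PC-La. These ranges are a description, since Upp1 was chosen by the first of these differences. The small difference between PC-La and Laser ranged from -0.40 without PC-La 2 to 0.08 without PC-La 1, so its direction depended on single samples.

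**Figure D1:**
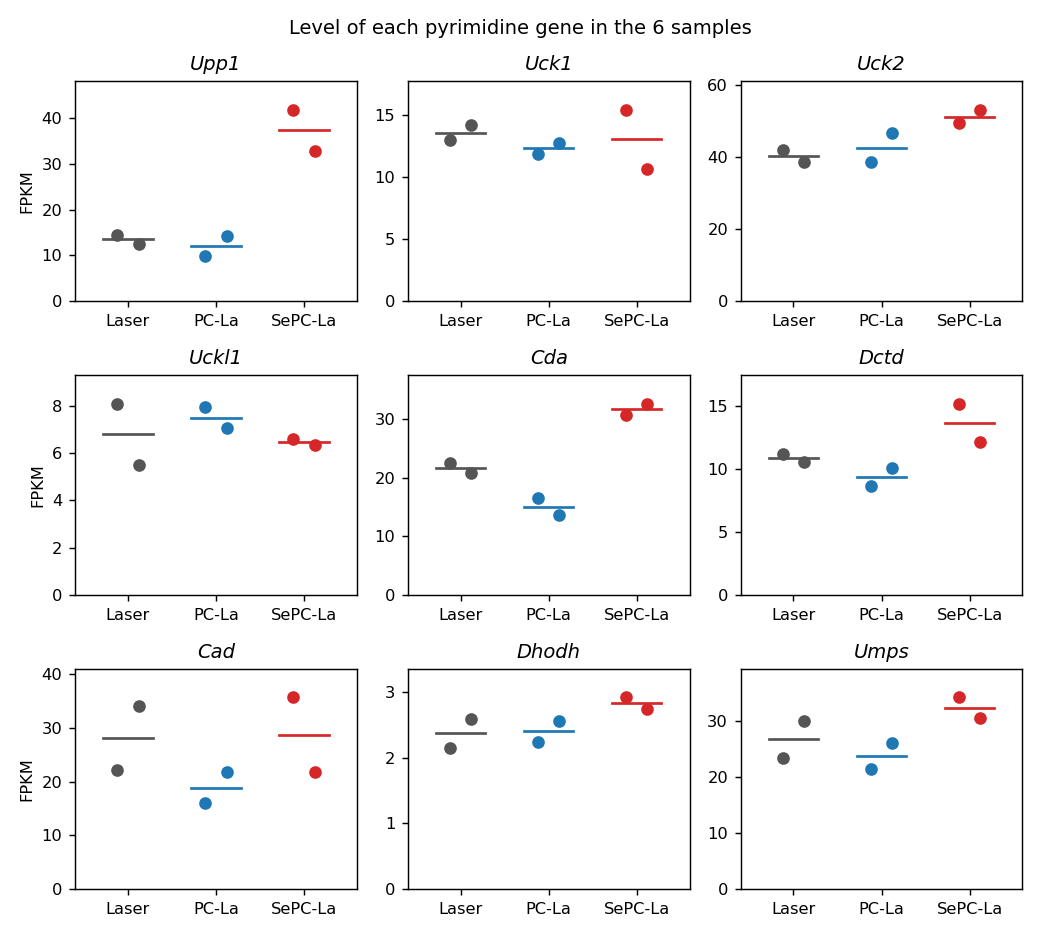
Level of each of the 9 genes (y axis, FPKM, starting at 0) in the Laser, PC-La and SePC-La groups (x axis). Points are single samples and lines are group means. Upp1 reaches 41.8 and 32.9 FPKM in SePC-La and at most 14.4 FPKM elsewhere, Cda is lowest in PC-La and highest in SePC-La, and the 2 Cad values of SePC-La lie far apart.

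The stretch in front of the gene start is shown for Upp1, which had the widest range of levels among the 9 genes, and for Cda, the member with a call in all 3 comparisons. Both are RefSeq sequences of build GRCm38.p6, read 5′ to 3′ on the strand of the gene, and capitals mark a GC box (GGGCGG) or the letters of an AP-1 site (TGACTCA) on either strand. The Upp1 stretch covers 250 bases before a start on the plus strand, at chr11:9117758-9118007, upstream of the gene body at chr11:9118103-9136170. The Cda stretch is at chr4:138367993-138368205 on the minus strand, just upstream of the gene body at chr4:138338424-138367992, and the last 37 bases before the RefSeq start were left out because GENCODE places them in the gene.
Upp1: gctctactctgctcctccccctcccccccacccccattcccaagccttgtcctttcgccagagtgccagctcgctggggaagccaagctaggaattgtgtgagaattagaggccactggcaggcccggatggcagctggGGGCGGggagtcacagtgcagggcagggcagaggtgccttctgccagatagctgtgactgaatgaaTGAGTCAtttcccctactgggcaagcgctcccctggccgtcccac
Cda: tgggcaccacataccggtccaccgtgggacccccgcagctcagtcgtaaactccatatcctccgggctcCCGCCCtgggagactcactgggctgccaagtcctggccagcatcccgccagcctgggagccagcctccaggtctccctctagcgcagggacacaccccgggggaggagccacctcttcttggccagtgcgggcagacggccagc
The Upp1 stretch had a GC content of 62.4%, with a GC box beginning 111 bases and the AP-1 letters beginning 45 bases before the start. The Cda stretch had a GC content of 68.5%, with a GC box beginning 181 bases before the start and no AP-1 letters. Of 32851 windows of 250 bases before RefSeq starts, 32.7% held GGGCGG and 4.46% held TGACTCA on either strand. Windows were listed for 8 of the 9 genes. TGACTCA was found in 2 of the 3 windows of Upp1, which overlap each other, and in none of the windows of the other members. CACGTG was in none of the members' windows and in 6.02% of all, and TATAAA was in the window of Umps alone among the members and in 12.4% of all. These matches describe letters and say nothing of binding.

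Cda, which deaminates cytidine and deoxycytidine, was the member besides Upp1 that separated the groups most clearly. Its level was 22.4 and 20.7 FPKM in Laser 1 and 2, 16.5 and 13.6 FPKM in PC-La 1 and 2, and 30.6 and 32.7 FPKM in SePC-La 1 and 2. The 3 groups did not overlap, with PC-La lowest and SePC-La highest. The mean was 21.6 ± 1.19 FPKM in Laser, 15.1 ± 2.04 FPKM in PC-La and 31.6 ± 1.43 FPKM in SePC-La (SD, n = 2). SePC-La was above PC-La by 1.03 on the log2 scale (SE 0.14, adjusted p = 0.0868). SePC-La was above Laser by 0.53 (SE 0.14, adjusted p = 0.376), and PC-La was below Laser with a log2 difference of -0.50 (SE 0.14, adjusted p = 0.705). All 3 differences were calls at the unadjusted threshold, and none passed after adjustment.

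Both comparisons with SePC-La kept the call for Cda in 15 of 15 alternatives. For SePC-La against PC-La its adjusted p ranged from 0.0305 to 0.582, and it was under 0.05 in 3 alternatives, which left Laser 1, Laser 2 or both out of the fit. At that adjusted threshold those 3 fits passed between 637 and 643 of the 10853 genes, against 0 in the limma fit of all 6 samples, where 2637 genes had an unadjusted p under 0.05. The lower level in PC-La than in Laser lost its call without PC-La 2 (log2 difference -0.37, adjusted p = 0.996).

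Dctd (chr8:48099092-48153233, plus strand), which supplies dUMP for thymidylate synthesis, had the same order of groups as Cda over a narrower range. It stood at 11.2 and 10.6 FPKM in Laser, 8.67 and 10.1 FPKM in PC-La, and 15.2 and 12.2 FPKM in SePC-La, and the 3 groups did not overlap. SePC-La was above PC-La by 0.50 on the log2 scale (SE 0.15, adjusted p = 0.147), which was a call. The log2 difference from Laser was 0.30 for SePC-La (SE 0.15, adjusted p = 0.473) and -0.20 for PC-La (SE 0.15, adjusted p = 0.764), neither a call. The call against PC-La was lost without PC-La 1 (0.40, adjusted p = 0.592) and without SePC-La 1 (0.35, adjusted p = 0.448), and the difference from Laser became a call without SePC-La 2 (0.44, adjusted p = 0.422). Together the 2 deaminase genes summed to 31.3 to 33.7 FPKM in Laser, 23.7 to 25.2 FPKM in PC-La and 44.8 to 45.8 FPKM in SePC-La.

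Uck2 (chr1:167222883-167285320, minus strand), a kinase of uridine and cytidine, was the most abundant of the 9 genes in every sample. Its level was 41.8 and 38.6 FPKM in Laser, 38.7 and 46.5 FPKM in PC-La, and 49.3 and 53.1 FPKM in SePC-La. Both SePC-La samples exceeded all others, and the other 2 groups overlapped. SePC-La was above Laser by 0.34 on the log2 scale (SE 0.14, adjusted p = 0.407), a call that was lost in 9 of 15 alternatives. These included leaving out Laser 2 (0.28), PC-La 1 (0.34), PC-La 2 (0.34), SePC-La 1 (0.39) or SePC-La 2 (0.29), and the adjusted p over the alternatives ranged from 0.306 to 0.735. The log2 difference was 0.26 between SePC-La and PC-La (SE 0.14, adjusted p = 0.276) and 0.08 between PC-La and Laser (SE 0.14, adjusted p = 0.880).

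The other 2 uridine kinase genes did not pass the test in any comparison. Uck1 (chr2:32255002-32260159, minus strand) lay between 10.7 and 15.4 FPKM, and both extremes were SePC-La samples. Its log2 differences were between -0.13 and 0.06 in the 3 comparisons (SE 0.18). Uckl1 (chr2:181569149-181584892, minus strand), which encodes a uridine kinase-like protein, lay between 5.48 and 8.10 FPKM with the widest gap between the 2 Laser samples, and its log2 differences were between -0.19 and 0.15 (SE 0.19). Without Laser 1, Uckl1 became a call for PC-La against Laser at 0.39 (adjusted p = 0.181). Of the exon bases of Uckl1, 9.92% are shared with the antisense gene Uckl1os on the opposite strand, and whether reads were counted by strand is not given in the sources used here, so part of its count could belong to that gene. The same holds for 6.11% of the exon bases of Umps and 2.75% of those of Uck2.

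Of the 3 de novo genes, 1 had a call, in 1 comparison. Cad (chr5:31054780-31078479, plus strand) varied within groups as much as between them, with 22.2 and 34.0 FPKM in Laser, 15.9 and 21.7 FPKM in PC-La, and 35.7 and 21.7 FPKM in SePC-La. Its log2 difference was -0.54 for PC-La against Laser (SE 0.31, adjusted p = 0.753), 0.02 for SePC-La against Laser (SE 0.31, adjusted p = 0.986) and 0.56 for SePC-La against PC-La (SE 0.31, adjusted p = 0.302), none of them a call. Without SePC-La 2 the last became a call at 0.90 (adjusted p = 0.190), and without Laser 1 the difference between PC-La and Laser became a call at -0.84 (adjusted p = 0.189).

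Umps (chr16:33954782-33967038, minus strand) stood at 23.4 and 29.9 FPKM in Laser, 21.4 and 26.1 FPKM in PC-La, and 34.2 and 30.5 FPKM in SePC-La. Both SePC-La samples exceeded the other 4. SePC-La was above PC-La by 0.43 on the log2 scale (SE 0.17, adjusted p = 0.191), a call that was lost in 5 of 15 alternatives. These were quantile normalization, the replicate block, and leaving out PC-La 1 (0.30), SePC-La 1 (0.35) or SePC-La 2 (0.51). SePC-La against Laser was not a call (0.28, SE 0.17, adjusted p = 0.520) but became one without Laser 2 (0.45, adjusted p = 0.243), and PC-La against Laser was not one (-0.16, SE 0.17, adjusted p = 0.810). Dhodh (chr8:109591343-109608673, minus strand) was the least abundant member in every sample, at 2.15 to 2.92 FPKM, and its log2 differences were between 0.02 and 0.19 (SE 0.16). The 3 de novo genes summed to 47.7 and 66.5 FPKM in Laser, 39.6 and 50.4 FPKM in PC-La, and 72.8 and 54.9 FPKM in SePC-La, so that Laser and SePC-La overlapped.

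**Figure D2:**
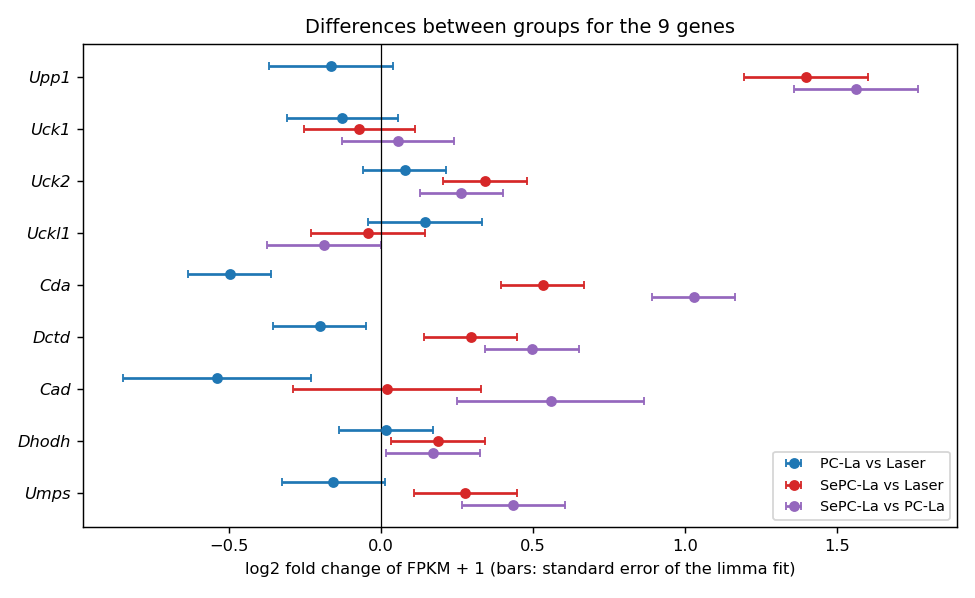
Log2 fold change of FPKM + 1 (x axis) for the 9 genes (y axis) in the 3 comparisons, with bars for the standard error of the fit. Upp1 lies at 1.40 and 1.56 in both comparisons with SePC-La. Cda and Dctd each have 3 values whose bars do not reach 0, though Dctd had a call only for SePC-La against PC-La. The bars of Uck1 reach 0 in all 3.

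Across the 8 members other than Upp1, the counts in each comparison were read against the shares among all 10853 genes tested. For PC-La against Laser, 0 of 8 were higher at p under 0.05 (3.38% of all genes) and 1 was lower, Cda (2.4% of all genes). For SePC-La against Laser, 2 of 8 were higher, Cda and Uck2 (4.9% of all genes), and 0 were lower (7.24%). For SePC-La against PC-La, 3 of 8 were higher, Cda, Dctd and Umps (9.91%), and 0 were lower (14.4%). None of these 8 members passed an adjusted p under 0.05 in the fit of all 6 samples, and neither did any other of the 10853 genes. Upp1 is described without a p.

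Groups that did not overlap were more frequent than calls, among the members and among all genes. For PC-La against Laser this held upwards for 0 of the 8 genes (20.4% of all genes) and downwards for 4, Cad, Cda, Dctd and Uck1 (21.6%). For SePC-La against Laser it held upwards for 5, Cda, Dctd, Dhodh, Uck2 and Umps (15% of all genes), and downwards for 0 (25.6%). For SePC-La against PC-La it held upwards for the same 5 genes (26%) and downwards for 1, Uckl1 (39.5%). The median log2 difference of the 8 genes was -0.14 for PC-La against Laser, 0.23 for SePC-La against Laser and 0.35 for SePC-La against PC-La, beside medians over all genes of -0.00062, -0.065 and -0.074. The comparisons share samples, so these values are not independent of each other.

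Within a sample, Upp1 changed its place among the 9 genes. It ranked 5th and 6th by level in Laser, 6th and 4th in PC-La, and 2nd in both SePC-La samples, where Uck2 alone was higher. Uck2 ranked first, Uckl1 8th and Dhodh 9th in all 6 samples, while Umps, Cad, Cda and Upp1 exchanged places between samples. Relative to Uck2, Upp1 stood at ratios of 0.344 and 0.326 for the Laser samples and 0.256 and 0.306 for the PC-La samples, against 0.846 and 0.619 for the SePC-La samples. Relative to Umps, the ratio was 0.420 to 0.616 for Laser and 0.464 to 0.546 for PC-La, against 1.08 to 1.22 for SePC-La. Only against Cda did a sample outside SePC-La reach the SePC-La range among the 4 such ratios examined (to Uck2, Umps, Cad and Cda), with 1.05 in PC-La 2 and 1.01 in SePC-La 2. Over the 6 samples the highest level was 4.21 times the lowest for Upp1, 2.40 times for Cda, 2.24 times for Cad and between 1.36 and 1.75 times for the other 6.

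The genes that could break uracil down further were near or at 0. Dpyd, which begins uracil degradation, was at most 0.045 FPKM, and Dpys and Upb1, which follow it, were at most 0.018 and 0.031 FPKM. Upp2, the second uridine phosphorylase gene, lay between 0.062 and 0.319 FPKM, and Tymp, the thymidine phosphorylase gene, between 0.492 and 1.22 FPKM. Of these 3 phosphorylase genes, Upp1 was the most abundant in all 6 samples. Uprt, named for uracil phosphoribosyltransferase, stood at 4.64 and 3.57 FPKM in Laser, 3.39 and 4.79 FPKM in PC-La, and 3.27 and 1.94 FPKM in SePC-La, with a log2 difference of -0.52 between SePC-La and Laser (SE 0.24, adjusted p = 0.439) that was not a call.

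A wider list of 49 genes covered other salvage enzymes, CTP and thymidylate synthesis, nucleotidases, nucleoside transporters, degradation, ribose phosphate and UDP-sugar use, and purine salvage. Of these, 39 passed the filter. For PC-La against Laser, 1 of 39 was a higher call (3.38% of all genes) and 0 were lower calls (2.4%). For SePC-La against Laser, 3 were higher (4.9%) and 0 lower (7.24%), and for SePC-La against PC-La, 6 were higher (9.91%) and 2 lower (14.4%). The median log2 difference of the 39 genes was -0.03, 0.09 and 0.09 in that order, beside -0.00062, -0.065 and -0.074 over all genes tested. None passed an adjusted p under 0.05 in the fit of all 6 samples.

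Ctps, which makes CTP from UTP, had the smallest p of the wider list. Its level was 28.6 and 33.5 FPKM in Laser, 22.8 and 25.2 FPKM in PC-La, and 46.0 and 37.1 FPKM in SePC-La, and the 3 groups did not overlap. SePC-La was above PC-La by 0.76 on the log2 scale (SE 0.16, adjusted p = 0.126) and above Laser by 0.40 (SE 0.16, adjusted p = 0.393), both calls. The call against PC-La held in all 15 alternatives. That against Laser was lost in 7, namely without Laser 1 (0.30), PC-La 1 (0.40), PC-La 2 (0.40) or SePC-La 1 (0.25), and in 3 fits of both samples per group compared. Those were quantile normalization, only the 4 samples compared, and the replicate block. Its paralog Ctps2 lay between 10.5 and 12.2 FPKM in all samples. Cmpk2, a mitochondrial UMP and CMP kinase, was the 1 gene of the wider list with a call in PC-La against Laser. It stood at 3.42 and 2.04 FPKM in Laser, 4.96 and 4.56 FPKM in PC-La, and 3.87 and 6.22 FPKM in SePC-La, with log2 differences from Laser of 0.65 (SE 0.25, adjusted p = 0.753) in PC-La and 0.69 (SE 0.25, adjusted p = 0.387) in SePC-La. The first call was lost with no filter, under the replicate block, and without Laser 2 (0.38), PC-La 1 (0.60) or PC-La 2 (0.70). The second was lost with only the 4 samples compared and under the replicate block. It was also lost without Laser 2 (0.42), PC-La 1 (0.69), PC-La 2 (0.69) or SePC-La 2 (0.41).

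The enzymes next to ribose phosphate included 2 of the higher genes. Pgm1, a phosphoglucomutase gene, was at 22.4 and 22.9 FPKM in Laser, 22.3 and 19.6 FPKM in PC-La, and 29.5 and 31.3 FPKM in SePC-La, and SePC-La was higher than both other groups (by 0.41 on the log2 scale against Laser, SE 0.12, adjusted p = 0.376, and by 0.52 against PC-La, SE 0.12, adjusted p = 0.126). Prps1, which makes the phosphoribosyl donor used by Umps, was higher in SePC-La than in PC-La by 0.76 (SE 0.25, adjusted p = 0.155). Its level was 26.6 and 39.5 FPKM in Laser, 23.1 and 27.3 FPKM in PC-La, and 51.7 and 36.0 FPKM in SePC-La, so SePC-La 2 lay within the Laser range. For Pgm1 the call against Laser was lost without SePC-La 2 (0.37) and that against PC-La without PC-La 2 (0.43), and for Prps1 the call was lost without PC-La 1 (0.64) or SePC-La 1 (0.50). Pgm2, the phosphopentomutase gene that handles ribose 1-phosphate, stayed between 17.2 and 21.7 FPKM.

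Nucleoside transporters moved in both directions between SePC-La and PC-La. Slc29a1, an equilibrative transporter of the plasma membrane, was higher by 1.02 on the log2 scale (SE 0.39, adjusted p = 0.192), but its Laser samples spanned 12.6 and 27.3 FPKM, beside 9.77 and 12.1 FPKM in PC-La and 28.8 and 18.5 FPKM in SePC-La. Slc29a2, of the same family, was higher by 0.73 (SE 0.25, adjusted p = 0.164). It stood at 4.93 and 6.23 FPKM in Laser, 2.93 and 4.14 FPKM in PC-La, and 8.23 and 5.01 FPKM in SePC-La. SePC-La 2 thus lay within the Laser range. Slc29a3, the transporter of lysosomal membranes, was lower by a log2 difference of -0.62 (SE 0.16, adjusted p = 0.130), with 6.78 and 5.83 FPKM in Laser, 7.87 and 8.09 FPKM in PC-La, and 4.19 and 5.56 FPKM in SePC-La. The call of Slc29a3 held in all 15 alternatives. That of Slc29a1 was lost without PC-La 1 (0.88), PC-La 2 (1.16) or SePC-La 1 (0.71), under the replicate block and with voom on recovered reads. That of Slc29a2 was lost without PC-La 1 (0.54) or SePC-La 1 (0.42). Slc29a4 was listed at 0 in all samples, and the concentrative transporter genes Slc28a1 and Slc28a3 were at most 0.051 FPKM. Slc28a2, also a concentrative transporter gene, was expressed and had no call. It stood at 3.43 and 5.57 FPKM in Laser, 3.24 and 3.45 FPKM in PC-La, and 4.42 and 4.64 FPKM in SePC-La.

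The cytosolic nucleotidase gene Nt5c2 was lower in SePC-La than in PC-La (log2 difference -0.38, SE 0.13, adjusted p = 0.165) and Dut, which prevents uracil from entering DNA, was higher (0.34, SE 0.13, adjusted p = 0.189). The call of Dut was lost without any 1 of the 4 samples compared (0.28 to 0.41), and that of Nt5c2 without PC-La 1 (-0.35), PC-La 2 (-0.41) or SePC-La 1 (-0.32). Both calls were also lost under quantile normalization and under the replicate block. The other 5 nucleotidase genes had no call in any comparison. Neither did the thymidine kinase gene Tk1, at 17.7 to 20.8 FPKM, nor Tyms, at 6.31 to 7.53 FPKM. Pnp, which cleaves purine nucleosides as Upp1 does uridine, stood at 3.07 to 4.06 FPKM and had no call, though reads could be split with its near-identical neighbour Pnp2. The ratio of Upp1 to Pnp ran from 3.37 to 4.69 for Laser and from 2.88 to 4.58 for PC-La, against 8.09 to 11.5 for SePC-La.

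**Figure D3:**
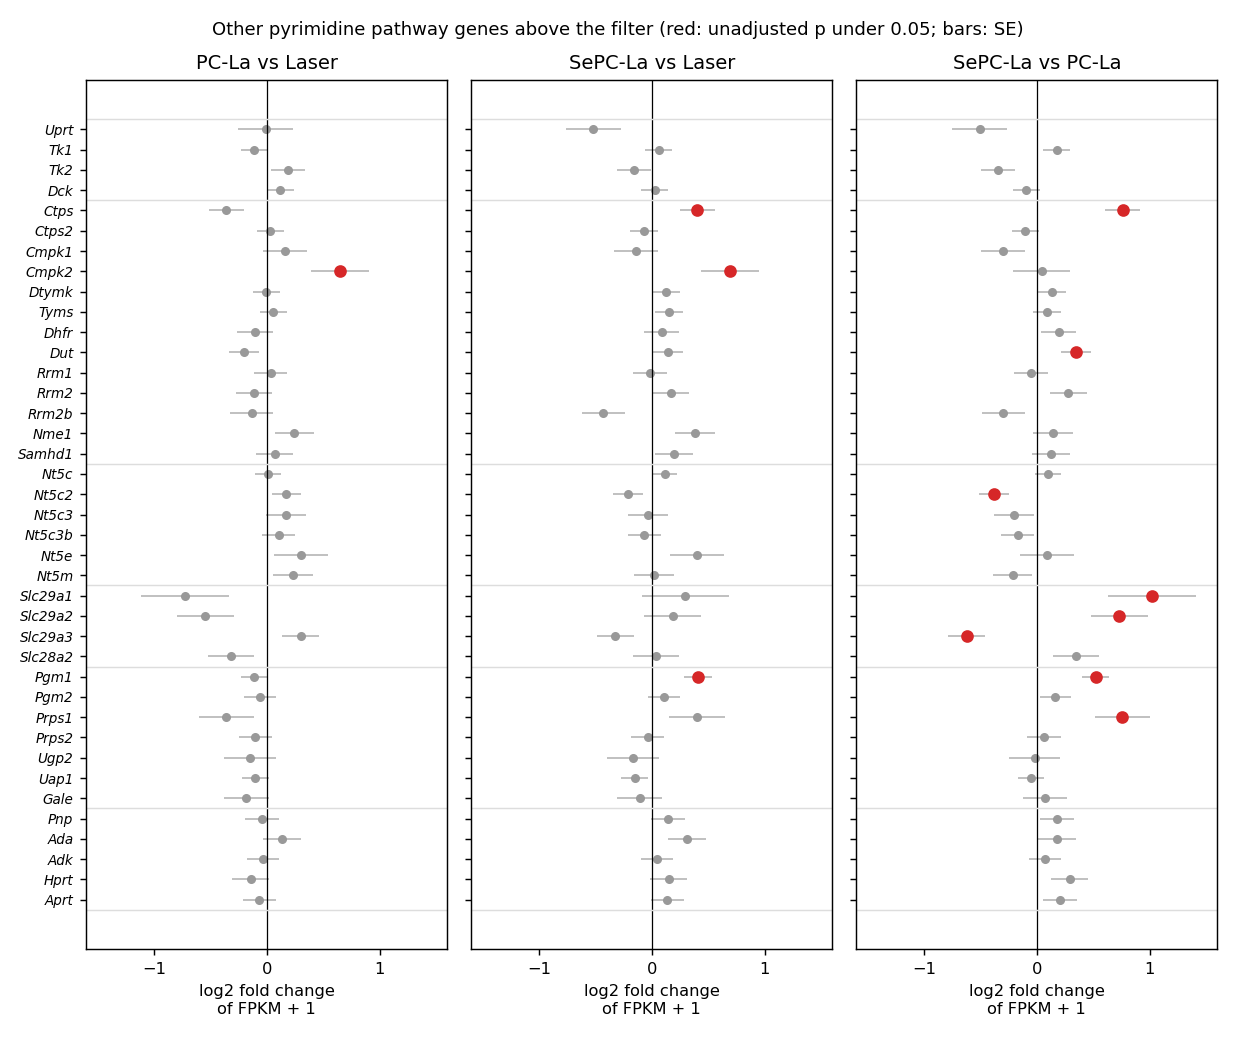
Log2 fold change of FPKM + 1 (x axis) in the 3 comparisons for the 39 other pathway genes past the filter (y axis, grouped by role), with bars for the standard error and red points for p under 0.05. Red points number 1, 3 and 8 from left to right, and in the right panel Slc29a3 and Nt5c2 lie to the left of 0 while the other 6 lie to the right.

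The genes with profiles most like that of Upp1 came from outside the pathway. Likeness was measured as the root mean square distance between mean-centred log2(FPKM + 1) profiles over the 6 samples, on which Upp1 itself lay 0.722 from a flat profile. The nearest of 10852 other genes were Cth (0.177), Rnd1 (0.189), Il1rn (0.199), Plaur (0.229) and Slc16a3 (0.238). Cth encodes cystathionine gamma-lyase, which makes cysteine, and stood at 2.17 and 1.99 FPKM in Laser, 1.26 and 2.32 FPKM in PC-La, and 7.69 and 4.19 FPKM in SePC-La. Plaur, the urokinase receptor gene, stood at 34.4 and 31.1 FPKM in Laser, 24.0 and 29.2 FPKM in PC-La, and 64.9 and 58.2 FPKM in SePC-La. Slc16a3, a lactate exporter gene, stood at 8.85 and 8.20 FPKM in Laser, 6.85 and 7.39 FPKM in PC-La, and 18.6 and 15.8 FPKM in SePC-La. Il1rn, the interleukin 1 receptor antagonist gene, had 12.3 and 8.84 FPKM in SePC-La and at most 5.03 FPKM elsewhere, and Rnd1, a small GTPase gene, had 4.76 and 3.36 FPKM in SePC-La and at most 1.46 FPKM elsewhere. The nearest pathway genes were Cda, 128th at 0.434, Ctps, 163rd at 0.455, Prps1, 257th at 0.489, and Dctd, 376th at 0.518. These distances are a description over 6 samples that share the same 3 groups.

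**Figure D4:**
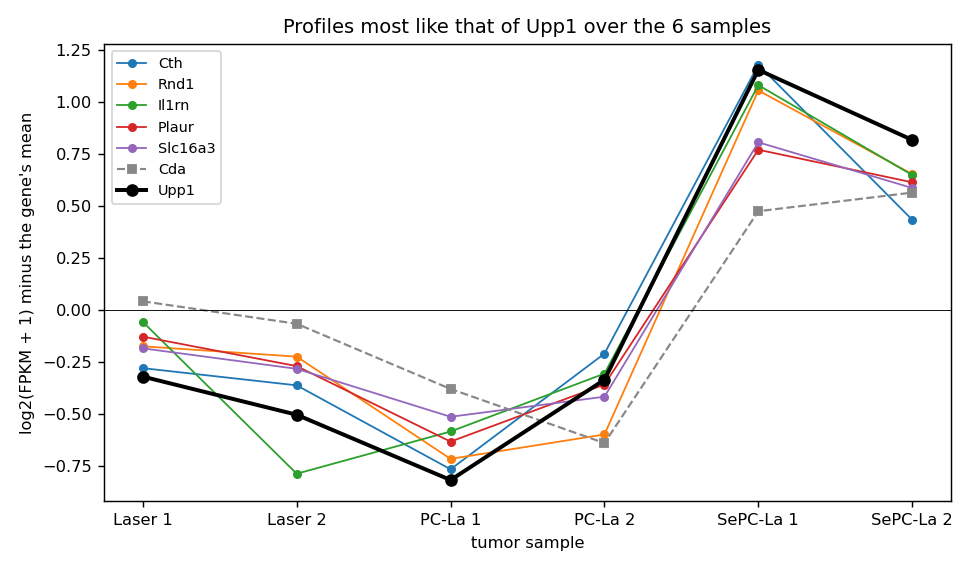
Log2(FPKM + 1) minus the mean of the gene (y axis) in the 6 samples (x axis) for Upp1 in black, its 5 nearest genes in color and Cda as a dashed grey line. All 7 lie above 0 in both SePC-La samples, and Upp1 lies below 0 in the other 4.

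Markers of other cells differed between the same groups. The 8 neutrophil markers summed to 39.4 to 171 FPKM in Laser, 96.9 to 163 FPKM in PC-La and 351 to 482 FPKM in SePC-La, and 7 of the 7 tested were higher in SePC-La than in either other group, 4 of them at p under 0.05 against Laser (4.9% of all genes) and 3 against PC-La (9.91%). The 6 erythroid markers summed to 13.6 to 127 FPKM in Laser, 263 to 362 FPKM in PC-La and 613 to 933 FPKM in SePC-La. Against Laser, 5 of the 5 tested were higher at p under 0.05 in SePC-La (4.9% of all genes) and 3 in PC-La (3.38%). Between SePC-La and PC-La, 1 was higher in SePC-La (9.91%). The 8 macrophage markers summed to 651 to 701 FPKM in Laser, 888 to 945 FPKM in PC-La and 381 to 721 FPKM in SePC-La, with 4 lower at p under 0.05 in SePC-La than in PC-La (14.4% of all genes). C1qa, C1qb and C1qc made up most of this sum, and Mrc1, Itgam and Cd68 went the other way, with their lowest group means in PC-La (14.4, 7.82 and 56.5 FPKM) and log2 differences of 0.28, 0.41 and 0.31 between SePC-La and PC-La, none of them a call. The 8 proliferation genes summed to 346 to 434 FPKM in Laser, 341 to 364 FPKM in PC-La and 426 to 461 FPKM in SePC-La, with 3 higher at p under 0.05 in SePC-La than in PC-La (9.91% of all genes), while Mki67 had a log2 difference of -0.25 in both comparisons with SePC-La, neither a call.

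Within SePC-La, Upp1 and the proliferation (461 against 426 FPKM) and endothelial (32.4 against 24.4 FPKM) sums were higher in SePC-La 1. The neutrophil, erythroid, macrophage, fibroblast, T and NK cell, skeletal muscle and lung epithelial sums were higher in SePC-La 2. Cda was also slightly higher there. S100a9 alone made up most of the neutrophil sum in these samples (226 and 300 FPKM in SePC-La 1 and 2). Csf3r of the same list went the other way (18.2 and 14.3 FPKM). Fibroblast markers summed to 283 to 1239 FPKM in Laser, 1562 to 1714 FPKM in PC-La and 117 to 631 FPKM in SePC-La. Col3a1, Lum and Dcn made up most of this sum, and none of the fibroblast markers had a call in any comparison. Col1a1 and Col1a2 had their highest group means in SePC-La (13.6 and 5.71 FPKM), carried by SePC-La 2 (23.2 and 10.1 FPKM). Skeletal muscle markers summed to 20.4 to 128 FPKM in Laser and at most 6.26 FPKM in the other groups. Of these, 5 of the 5 tested were lower at p under 0.05 than in Laser, both in PC-La (2.4% of all genes) and in SePC-La (7.24%). Endothelial markers summed to 18.3 to 32.4 FPKM, T and NK cell markers to 2.21 to 8.46 FPKM, and lung epithelial markers to 0.679 to 1.74 FPKM over all samples. The part of these cells in the levels of Upp1, Cda and the other genes was not tested. In bulk tumor RNA, fewer cells of a type and less RNA per cell cannot be told apart.

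**Figure D5:**
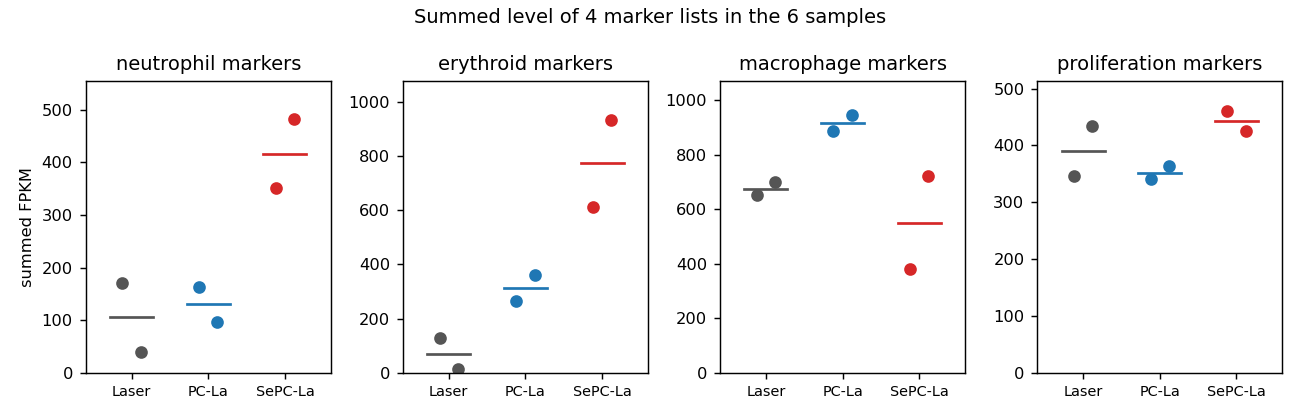
Summed FPKM (y axis, starting at 0, with its own range in each panel) of the neutrophil, erythroid, macrophage and proliferation marker lists in the 3 groups (x axis), with points for single samples and lines for group means. The neutrophil sums are 351 and 482 FPKM in SePC-La and at most 171 FPKM elsewhere, and the macrophage sums, mostly C1qa, C1qb and C1qc, are highest in PC-La, unlike Mrc1, Itgam and Cd68 of the same list.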

How the data were processed

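Total RNA of tumor tissue was sequenced in 6 samples, 2 per group as the labels list them. The authors deposited 1 table of normalized values, with a column per sample. Its unit is not named. The deposited values behaved as FPKM: multiplied by merged exon lengths of GENCODE M21 (GRCm38), they came out as whole reads in every sample, within 0.01, for 97.7% of the genes expressed. The submitters' processing notes deposited with the samples list HISAT2 2.0.5, HTSeq 0.9.1, DESeq 1.30.0 and build mm9 as the authors' tools, with no role given. Since the exon lengths that matched are those of GRCm38, coordinates given here are from GENCODE M21 and RefSeq on that build.

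The values were used with no further scaling. Of 21899 genes, the 10853 whose mean reached 1 FPKM were fitted on log2(FPKM + 1) with limma 3.58.1 (R 4.3.3). This scale makes the changes of low genes look smaller. The fit had all 6 samples in one fit, a trend on mean expression, robust empirical Bayes and Benjamini-Hochberg adjustment over all genes. The authors screened genes with DESeq at an unadjusted p under 0.05 and an absolute log2 fold change over 1. An unadjusted p under 0.05 was used for counts here, and the adjusted p is given beside it. With the fold change limit added to the limma fit, 0 of the 8 members other than Upp1 and 0 of the 39 other pathway genes remained in either comparison with Laser. Only Cda and Slc29a1 remained for SePC-La against PC-La. The fit was tested on simulated data. The members, pathway lists, marker lists and named genes were chosen with earlier results of these data known. Named genes were the 9 members, other pathway genes with p under 0.05 in a comparison or with a role like that of a member, and the 5 genes nearest to Upp1 in profile. Alternatives were a fit of only the 4 samples compared, the replicate number as a block, each sample left out, quantile normalization, scaling by median ratios, no trend, a pseudocount of 0.1, and a minimum mean of 5 FPKM or none. Voom on recovered reads was chosen after seeing the data. Protein sequences were not used here. Python 3.11.15, pandas 2.3.3, NumPy 2.4.6 and matplotlib 3.10.9 were used for tables and plots.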

Additional observations from a re-analysis of the deposited data

How the results depend on the processing

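For the 8 members other than Upp1 in the 3 comparisons, the log2 difference kept its direction and its side of the unadjusted threshold in 320 of 357 cases, lost the call in 17, gained it in 6 and changed sign in 14. For the 12 differences of other pathway genes that had a call, the call was kept in 138 of 178 cases and lost in 40. Uncalled differences of the other pathway genes were not recomputed singly. The differences of Upp1 are a description. For every gene, the filter, the trend and the replicate block leave a fitted difference as it is by their construction. The same holds for a fit of only the 4 samples compared and for leaving out a sample of the group not compared. In those alternatives only the p could change, so the kept direction there was fixed in advance.

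Counts at p under 0.05 moved more. For PC-La against Laser, the 1 member called became 0 to 3 when single samples were left out, and the 1 other pathway gene became 0 with no filter, with a minimum mean of 5 FPKM and under the replicate block, 3 with only the 4 samples compared, and 0 to 7 when single samples were left out. For SePC-La against Laser, the 2 members became 1 under quantile normalization, with no trend, with only the 4 samples compared and under the replicate block, and 1 to 2 when single samples were left out. The 3 other pathway genes there became 1 with only the 4 samples compared and 1 under the replicate block, and 1 to 6 when single samples were left out. For SePC-La against PC-La, the 3 members became 1 to 3 and the 8 other pathway genes 3 to 11 when single samples were left out, and the latter became 5 under the replicate block. The causes were not tested, and a sample left out leaves 1 in its group, which is then assumed to vary like the others.

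The following log2 differences, none with a call, changed sign. For PC-La against Laser, leaving out single samples gave -0.077 to 0.110 for Dhodh, -0.099 to 0.389 for Uckl1, -0.328 to 0.014 for Umps and -0.053 to 0.207 for Uck2, and quantile normalization gave -0.064 for Dhodh. For SePC-La against Laser, leaving out single samples gave -0.286 to 0.202 for Uckl1, -0.328 to 0.364 for Cad and -0.317 to 0.175 for Uck1. In the same comparison Uckl1 became 0.018 under median-ratio scaling and 0.047 under quantile normalization, and Cad became -0.0086 under quantile normalization. For SePC-La against PC-La, Uck1 ranged from -0.190 to 0.302 when single samples were left out.

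Whether the replicate numbers pair the samples is not given in the sources. Deviations from the group means of same-numbered samples correlated at 0.086 between Laser and PC-La, -0.43 between Laser and SePC-La, and -0.18 between PC-La and SePC-La over 10853 genes. These values cannot settle it, since other differences between the samples enter them too. The block shares a number and no known origin. Each of the 9 genes had at least 211 reads in every sample, while Upp2 had 7 to 37, so that levels near 0 rest on few reads.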
